A study of Mus musculus with 12 samples.

Results

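The Hedgehog pathway was followed through 8 core genes in sorted mouse epidermal cells: the ligand gene Shh, the receptor and modulator genes Ptch1, Hhip, Smo and Sufu, and the transcription factor genes Gli1, Gli2 and Gli3. Members were the probe sets whose only listed gene symbol was one of these names. Each gene had 1 probe set, so 8 of the 19938 named genes on the array were members, and all 8 were measured on all 12 arrays. The study sorted bulge cells, which are hair follicle stem cells, from the dorsal skin of untreated Per1-Venus mice aged 18 to 19 days and split them by the fluorescence of Venus, a reporter of the clock gene Per1. Bright cells are called clock-positive and dim cells clock-negative (3 arrays each, about 20 mice pooled per array). Basal cells of the interfollicular epidermis (IFE), the skin surface between follicles, came from the dorsal skin of untreated 1-year-old wild-type mice and mice with an epidermal knockout (KO) of the clock activator Bmal1 (3 arrays each, 5 mice pooled per array). The questions the design poses are whether bulge cells differ with their Per1 reporter level, and whether basal IFE cells differ with loss of Bmal1.

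Several limits apply to these groups. The sample labels of both bulge groups give the same gate, integrin alpha6 bright, CD34-positive and Venus-high, so the clock-negative group follows its title, its Venus-negative wording and the series design. The mouse strain, the promoter that drove the knockout and whether the epidermal mice carried the reporter are not given in the sources used here. In bulk RNA of sorted cells, fewer cells of a type and less RNA per cell cannot be told apart. Nothing in the labels names separate sorting days, so p-values measure only the spread between these pooled samples.

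In Hedgehog signalling the secreted ligand, here SHH, binds PTCH1, which in the absence of ligand holds the membrane protein SMO inactive. Freed SMO acts at the primary cilium, where it releases GLI proteins from their inhibitor SUFU; GLI2 is the main activator, GLI3 acts mostly as a repressor, and GLI1 is an activator that is itself a transcriptional target. PTCH1 and HHIP, which both bind the ligand, are also induced by the pathway, so Gli1, Ptch1 and Hhip RNA are commonly read as its output. In skin, SHH made by the growing hair follicle drives follicle growth, and Gli1-positive cells lie in parts of the bulge and hair germ.

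Promoter sequences are shown for Gli3 and Sufu, which together with Gli2 were the members higher in clock-positive bulge cells under every scaling tried (below). RefSeq windows (GRCm38.p6; 250 bases before and 50 after a gene's start) matched 6 of the 8 members, all but Shh and Gli1. The 250 bases before the start follow, 5′ to 3′ on the gene's strand, with CpG dinucleotides in capitals; Gli3 lies at chr13:15463473-15463722 and Sufu at chr19:46396646-46396895, both on the plus strand.
Gli3: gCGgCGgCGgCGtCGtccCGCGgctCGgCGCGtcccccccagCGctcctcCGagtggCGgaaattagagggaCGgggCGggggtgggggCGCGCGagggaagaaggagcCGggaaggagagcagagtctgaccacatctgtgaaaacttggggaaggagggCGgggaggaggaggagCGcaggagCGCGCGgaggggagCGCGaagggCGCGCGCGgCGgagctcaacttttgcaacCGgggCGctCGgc
Sufu: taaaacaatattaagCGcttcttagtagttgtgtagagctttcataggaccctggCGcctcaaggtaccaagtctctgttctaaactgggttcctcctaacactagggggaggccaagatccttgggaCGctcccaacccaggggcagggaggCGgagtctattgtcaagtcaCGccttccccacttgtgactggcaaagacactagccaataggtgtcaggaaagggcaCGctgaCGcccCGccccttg
The Gli3 stretch holds 34 CpG and the Sufu stretch 8. The whole 300-base Gli3 window has 71.0% G and C, against 56.3% for Sufu and a median of 52.7% over 32851 windows. The GLI binding motif GACCACCCA, searched on both strands, was found in 83 windows (0.253%) and the E-box CACGTG, a motif bound by BMAL1 with its partner CLOCK, in 2349 (7.15%). None of the 6 member windows held either motif, which says only that these letters are not in these windows.

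All values are RMA log2 intensities. Array medians ran from 6.816 to 7.006 in the bulge set and from 7.747 to 7.799 in the epidermis set, and the sets hold values for different probe sets, so levels were compared only within a set. Cd34, a surface marker of the sort, read 10.95 to 10.98 on the clock-positive and 9.44 to 9.58 on the clock-negative arrays, and Per1 read 9.72 to 9.81 against 9.19 to 9.36. The basal keratin gene Krt14 was bright in both sets, at 12.06 to 12.26 in bulge and 13.47 to 13.56 in IFE. The probe set of Bmal1 itself (symbol Arntl) was not lower on the arrays labelled KO, at 9.55 to 9.85 against 9.27 to 9.47 on wild-type arrays; whether its probes lie in the deleted exons was not analysed here, and the label is therefore unchecked by it. Nr1d1, a clock gene activated by BMAL1, read 8.39 to 8.63 on the KO and 12.28 to 12.60 on the wild-type arrays.

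In the bulge, 6 of the 8 Hedgehog genes were higher in clock-positive than in clock-negative cells, 1 was lower and Shh did not pass the test (limma, adjusted p under 0.05 over all 13956 genes tested). Gli2 and Gli3 differed most, 1.83-fold and 1.60-fold, and of the output genes Ptch1 and Gli1 were higher by 1.15-fold and 1.16-fold while Hhip was 1.16-fold lower. This comparison moved much of the transcriptome: 45.2% of all genes passed as higher and 18.3% as lower. The median change of the members was 0.26 on the log2 scale, beside 0.15 over all genes tested. Only 5.12% of all genes were higher by at least 1.5-fold, and Gli2 and Gli3 were the 2 members among them. The groups of 3 did not overlap for 7 of the 8 members and for 69.2% of all genes.

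**Figure D1:**
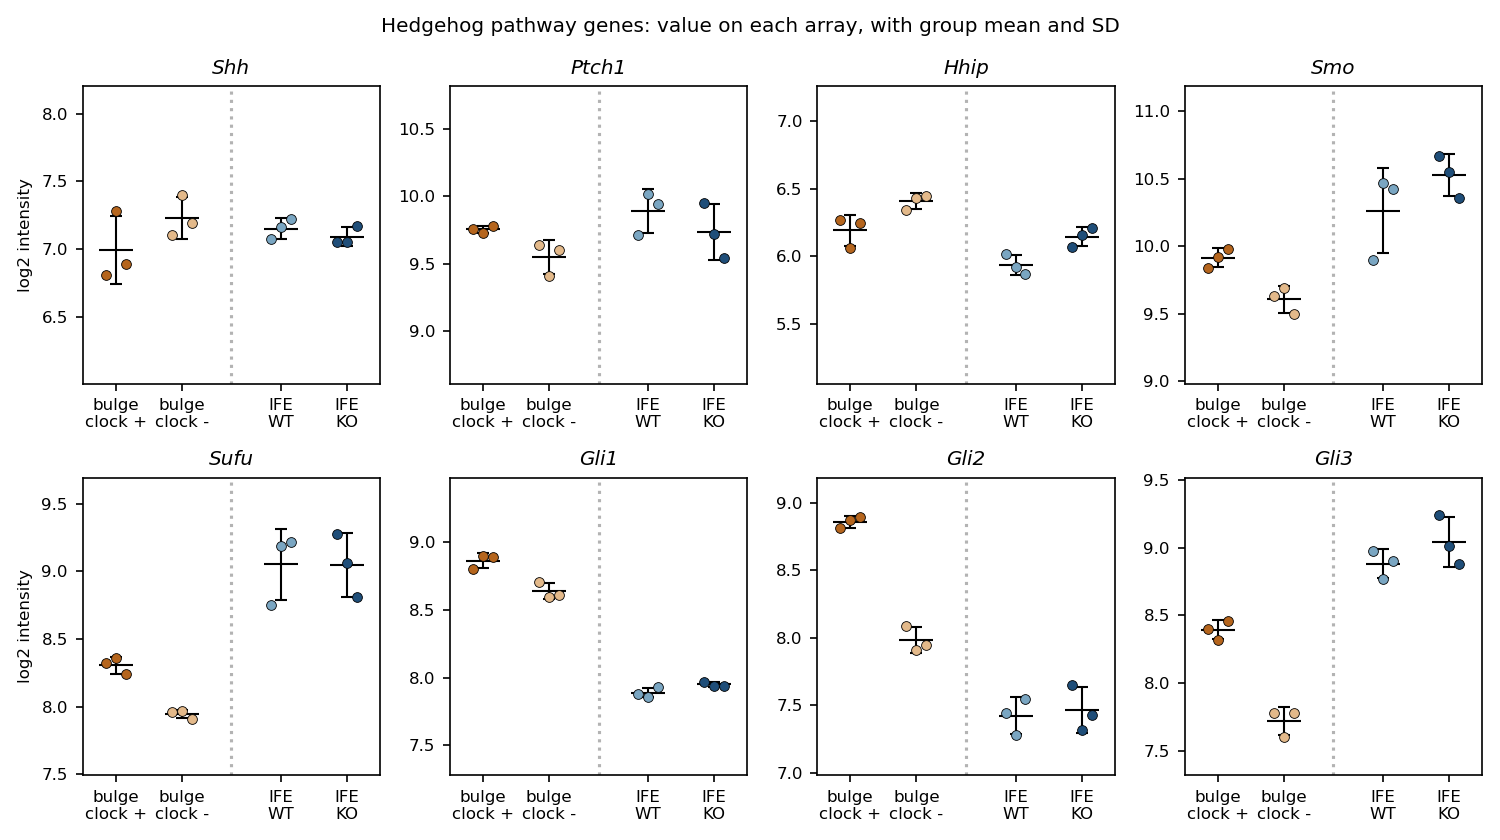
Log2 intensity of each Hedgehog gene (vertical axis) on each of the 12 arrays, by group; points are arrays, and lines are the group mean with SD (n = 3). Each panel has its own range and the dotted line parts the 2 sets, whose levels are not compared. The bulge groups lie apart for all genes but Shh, most widely for Gli2 (8.81 to 8.89 against 7.91 to 8.09).

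The ligand gene was dim. Shh, which encodes the Hedgehog ligand of the hair follicle, had values of 6.81, 7.28 and 6.89 on the clock-positive arrays and 7.10, 7.40 and 7.19 on the clock-negative arrays. The groups overlapped, because clock-positive array 2 lay above 2 of the clock-negative arrays. The change was -0.24 ± 0.12 (SE; 95% interval -0.50 to 0.03, adjusted p = 0.105 by limma). Without clock-positive array 2 it was -0.38 with an adjusted p of 0.00949 by limma. Without any 1 of the other arrays it was -0.15 to -0.30 and did not pass (adjusted p of 0.0692 to 0.330 by limma). With the replicate number as a block the change of -0.24 passed (adjusted p = 0.00857 by limma), though the labels do not say that these numbers pair samples.

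Of the genes for ligand-binding proteins, 1 was higher and 1 lower. Ptch1, the receptor that restrains SMO, read 9.76, 9.73 and 9.78 in clock-positive and 9.64, 9.41 and 9.60 in clock-negative cells. Its clock-positive arrays were close together and clock-negative array 2 was the lowest. The change was 0.21 ± 0.07 (interval 0.05 to 0.37, adjusted p = 0.0294 by limma). The call was lost without clock-negative array 2 (0.14, adjusted p = 0.0823 by limma) and without any 1 of the clock-positive arrays (adjusted p of 0.0757, 0.0550 and 0.0882 without arrays 1, 2 and 3).

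Hhip, a membrane protein that binds and sequesters Hedgehog ligands, read 6.27, 6.06 and 6.25 in clock-positive and 6.34, 6.43 and 6.45 in clock-negative cells. The groups did not overlap, though all 6 values lay near the level of 6.27 below which genes were left out as dim. The change was -0.21 ± 0.07 (interval -0.37 to -0.05, adjusted p = 0.0280 by limma). It did not pass without clock-positive array 2 (adjusted p = 0.133), clock-negative array 2 (0.0589) or clock-negative array 3 (0.0920).

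Among the members that carry the signal inside the cell, both were higher. Smo, the membrane protein that relays the signal, read 9.84, 9.92 and 9.98 in clock-positive and 9.63, 9.69 and 9.50 in clock-negative cells. Its groups did not overlap, and the change was 0.30 ± 0.07 (interval 0.15 to 0.46, 1.23-fold, adjusted p = 0.00446 by limma). Sufu, which encodes the cytoplasmic inhibitor of GLI proteins, read 8.32, 8.36 and 8.24 against 7.96, 7.97 and 7.91. Every clock-positive array lay well above every clock-negative array, and the change was 0.36 ± 0.06 (interval 0.22 to 0.50, 1.28-fold, adjusted p = 8.23e-04 by limma). Of all genes tested, 18.5% had a higher change than Sufu and 25.8% a higher change than Smo.

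All 3 Gli genes were higher, by unequal amounts. Gli1, the activator that is itself induced by the pathway, read 8.80, 8.90 and 8.89 in clock-positive and 8.71, 8.60 and 8.61 in clock-negative cells. The gap between the lowest clock-positive and the highest clock-negative array was narrow, and the change was 0.22 ± 0.06 (interval 0.08 to 0.36, adjusted p = 0.0136 by limma). It did not pass without clock-positive array 2 (adjusted p = 0.0548), clock-positive array 3 (0.0535) or clock-negative array 3 (0.0503).

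Gli2, the main activator, read 8.81, 8.87 and 8.89 in clock-positive and 8.09, 7.91 and 7.95 in clock-negative cells. The groups were far apart relative to their spread, with a change of 0.87 ± 0.07 (interval 0.72 to 1.02, adjusted p = 5.92e-06 by limma), and 1.55% of genes had a higher change. Gli3, which acts mostly as a repressor, read 8.40, 8.32 and 8.46 against 7.78, 7.60 and 7.78. Its change was 0.67 ± 0.07 (interval 0.51 to 0.84, adjusted p = 5.21e-05 by limma), and 3.37% of genes had a higher change. The 95% intervals of Gli2 and Gli3 lay above that of Gli1; the differences between these genes were not tested.

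**Figure D2:**
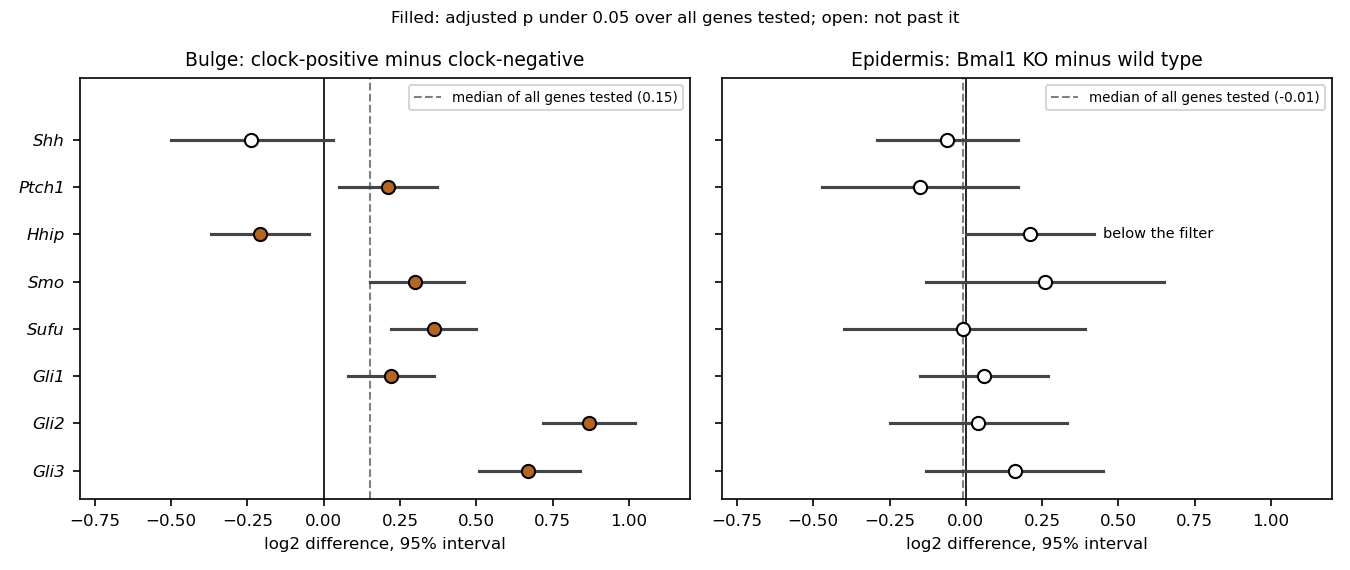
Log2 difference of each Hedgehog gene (horizontal axis) with its 95% interval, for clock-positive minus clock-negative bulge cells (left) and Bmal1 KO minus wild-type IFE cells (right); filled points passed an adjusted p of 0.05 and the dashed line is the median of all genes tested. On the left Gli2 (0.87) and Gli3 (0.67) stand farthest to the right, and on the right no tested gene passed; Hhip was below the filter there.

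The calls of the smaller changes, and the signs of Ptch1 and Hhip, rested on how the arrays were scaled. The bulge change varied with brightness: its median was -0.16 in the dimmest of 3 equal groups of genes, where Shh and Hhip lie, and 0.22 in both the middle and the brightest group. Median centring of the arrays moved the median of all genes to 0.29, with 8928 higher and 1355 lower, while quantile normalization moved it to 0.07 (4113 and 1696) and cyclic loess to 0.04 (3531 and 2208). As deposited, the counts were 6311 higher and 2555 lower.

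Gli2, Gli3 and Sufu were called higher under all 4 scalings, which is 3 of 8 members (37.5%), beside 22.8% of all genes. Gli2 changed by 1.02, 0.73 and 0.68 under median centring, quantile normalization and cyclic loess, Gli3 by 0.82, 0.57 and 0.53, and Sufu by 0.50, 0.23 and 0.21. Smo gave 0.45, 0.15 and 0.10 and did not pass under quantile (adjusted p = 0.144) or loess (0.343). Gli1 gave 0.36, 0.04 and 0.00, and Ptch1 gave 0.35, 0.04 and -0.01, so neither of these output genes passed under quantile normalization or loess. Hhip gave -0.07, 0.01 and 0.01, passing under none of the 3, and its sign turned under quantile and loess.

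**Figure D3:**
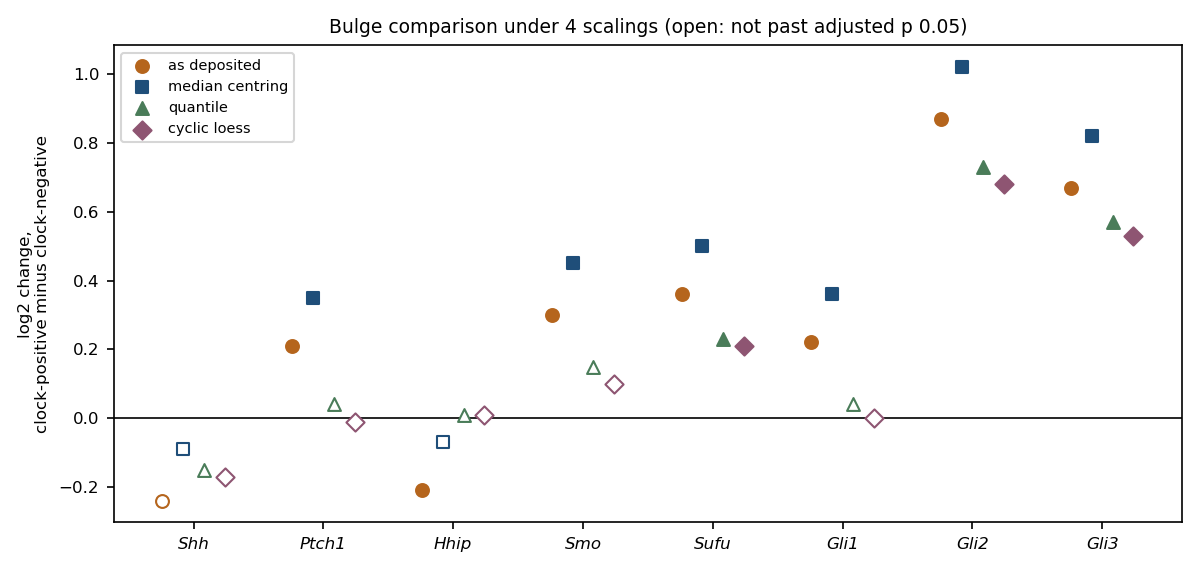
Log2 change of each Hedgehog gene in clock-positive minus clock-negative bulge cells (vertical axis) as deposited and under 3 other scalings; open symbols did not pass an adjusted p of 0.05. Gli2, Gli3 and Sufu are filled under all 4, whereas Gli1 lies at 0.36 under median centring and at 0.00 under cyclic loess.

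The wider pathway was taken from 5 lists with 68 genes on the array, the 8 members not among them. In the bulge 61 were tested, 41 were higher and 7 lower, with a median change of 0.28 beside 0.15 for all genes, of which 45.2% were higher and 18.3% lower. Under all 4 scalings 26 (42.6%) were higher and 0 lower. Of all 13956 genes tested, 3185 (22.8%) were higher and 1041 lower under all 4. The 7 lower calls became 2 without clock-positive array 1, 3 without clock-negative array 2 and 4 without clock-negative array 3. Of the 6 tested genes for other ligands and ligand processing, 1 was higher and 2 lower (median 0.02). Scube2, whose product helps release the lipid-bearing ligand, was higher by 0.45 ± 0.07 (adjusted p = 3.94e-04 by limma), and Ihh, a second ligand gene, was lower by a log2 change of -0.27 ± 0.08 (adjusted p = 0.0159 by limma). Scube1 changed by -0.24 ± 0.08 (adjusted p = 0.0185 by limma); it and Ihh each kept their call under 3 of the 4 scalings. Disp1, which exports the ligand, did not pass (0.13 ± 0.07).

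The tested genes for other receptors and co-receptors were all higher. Boc, a co-receptor that promotes ligand binding, read 10.49, 10.46 and 10.43 in clock-positive and 9.50, 9.33 and 9.40 in clock-negative cells. The groups lay far apart, with a change of 1.05 ± 0.07 (2.07-fold, adjusted p = 1.42e-06 by limma). Gas1, a second co-receptor, read 9.11, 9.09 and 9.28 against 8.50, 8.39 and 8.60, a change of 0.66 ± 0.08 (adjusted p = 8.54e-05 by limma). Gpr161, a ciliary receptor that restrains the pathway, was higher by 0.39 ± 0.08 (adjusted p = 0.00178 by limma). These were all 3 tested genes of their list, their median was 0.66, and each was called higher under all 4 scalings. Of all genes tested, 45.2% were higher as deposited and 22.8% under all 4 scalings. Cdon (0.59) and Lrp2 (-0.33) were below the brightness filter.

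Signal transduction genes were mostly higher: 15 of 21 tested rose, 1 fell, and the median was 0.25, beside 45.2% of all genes higher and 18.3% lower. Tulp3, which brings receptors into the cilium, was higher by 0.78 ± 0.07 (adjusted p = 1.76e-05 by limma), with 8.79 to 8.86 on the clock-positive and 7.99 to 8.18 on the clock-negative arrays. Kif7, a ciliary kinesin that regulates GLI proteins, was higher by 0.51 ± 0.08, Prkar1a, a regulatory subunit of protein kinase A, by 0.47 ± 0.08, and Iqce, which anchors a SMO-binding complex in the cilium, by 0.42 ± 0.06. The 1 that fell was Stk36 (-0.20 ± 0.06, adjusted p = 0.0176 by limma), named after its value was seen and past the threshold under 1 of the 4 scalings. Of the list, 5 (23.8%) were higher under all 4 scalings, near the 22.8% of all genes.

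Primary cilium genes were nearly all higher: 16 of 18 tested were higher and 0 lower, with a median of 0.37, beside 45.2% of all genes higher and 18.3% lower. Under all 4 scalings 12 (66.7%) were higher, beside 22.8% of all genes. Ift57, a subunit of the particle that carries cargo along the cilium, read 8.55, 8.37 and 8.41 in clock-positive and 7.28, 6.90 and 7.15 in clock-negative cells. No other gene of the 5 lists changed more (1.33 ± 0.10, 2.52-fold, adjusted p = 3.30e-06 by limma). Ift27 and Ift80, subunits of the same particle, were higher by 0.67 ± 0.07 and 0.57 ± 0.07, and Rab23, a small GTPase that restrains the pathway, by 0.51 ± 0.07.

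Genes known from other work as Hedgehog targets went both ways: 6 of 13 tested were higher and 4 lower, with a median of 0.09. The higher share is near the 45.2% of all genes, of which 18.3% were lower. Under all 4 scalings 5 (38.5%) were higher and 0 lower, beside 3185 (22.8%) higher and 1041 lower of all 13956 genes tested. Sox9, a transcription factor of the outer root sheath and bulge, read 10.62, 10.69 and 10.70 in clock-positive and 9.84, 9.78 and 9.88 in clock-negative cells, a change of 0.83 ± 0.06 (adjusted p = 4.47e-06 by limma). Bmi1, a Polycomb protein, was higher by 0.65 ± 0.08, the proliferation regulator Mycn by 0.44 ± 0.10 and the cell cycle regulator Foxm1 by 0.40 ± 0.07, each under all 4 scalings. The 4 lower genes, named after their values were seen, were the cyclin genes Ccnd2 (-0.26 ± 0.06) and Ccne1 (-0.20 ± 0.07) and the transcription factor genes Foxf1 (-0.21 ± 0.08) and Snai1 (-0.23 ± 0.09). None of them passed under all 4 scalings, and Foxf1 reached 0.01 under one.

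**Figure D4:**
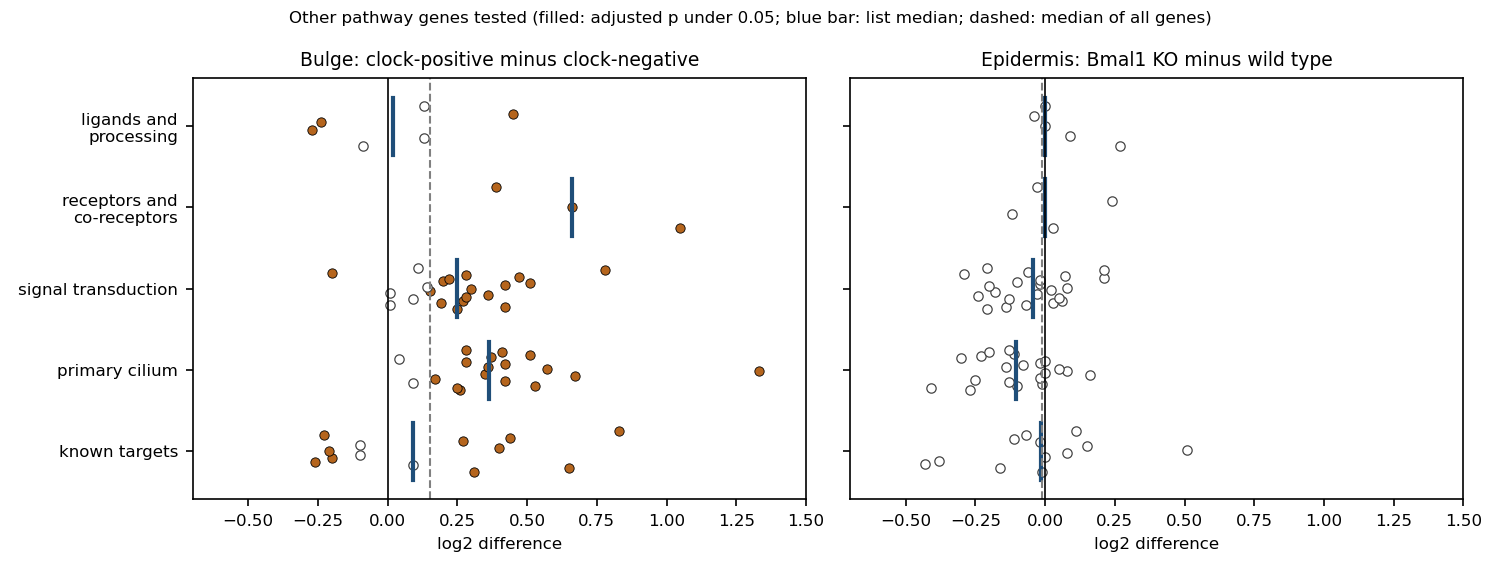
Log2 difference (horizontal axis) of each tested gene of the 5 Hedgehog lists, in the bulge (left) and the epidermis (right); filled points passed an adjusted p of 0.05, blue bars are list medians and dashed lines the median of all genes tested. On the left the receptor list (median 0.66) and the cilium list (0.37) lie to the right of the dashed line at 0.15; on the right 0 genes passed.

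Markers of several other cells and follicle compartments differed between the bulge groups, beside 45.2% of all genes higher and 18.3% lower. Upper follicle and sebaceous gland genes (4 of 8 higher, 1 lower) overlapped in summed linear intensity. Their sums were 9528 to 9693 on clock-positive and 9354 to 9949 on clock-negative arrays. Sums cover all list genes on the array, also those below the filter, whereas counts of higher and lower cover tested genes only. Schwann cell genes (0 of 3 higher, 1 lower) summed to 472 to 486 against 490 to 514. Basal keratinocyte genes (4 of 7 higher, 0 lower) summed to 19494 to 19819 against 17541 to 18620. The bulge list was higher in clock-positive cells for 8 of 9 genes, led by Cd34 (1.45 ± 0.06) and Lgr5 (1.34 ± 0.06). Krt15 was higher by only 0.20 ± 0.06. The gene not higher was Itga6, which encodes the integrin alpha6 of the sort gate (-0.15 ± 0.07, adjusted p = 0.0766 by limma). Hair germ genes, of which 3 of 6 were higher and 3 lower, summed to a linear intensity of 2591 to 2660 on clock-positive and 1560 to 1684 on clock-negative arrays; Lgr5 is in this list too. Hair matrix and shaft genes (3 of 7 higher, 3 lower) summed to 1563 to 1629 against 1307 to 1316. The 3 lower, named after their values were seen, were the keratin genes Krt31 (-0.54 ± 0.09), Krt33a (-0.80 ± 0.07) and Krt35 (-0.50 ± 0.08). In the dimmest of 3 equal groups of tested genes, where these keratins lie, 2014 of 4652 genes were lower. Marker lists are given as deposited only, without the other scalings. The 3 higher were the transcription factor genes Hoxc13 (0.96 ± 0.10), Msx2 (0.62 ± 0.07) and Dlx3 (0.75 ± 0.06). All 6 tested T cell genes were lower, and the summed linear intensity of the list was 848 to 869 on clock-positive and 2046 to 2390 on clock-negative arrays. Myeloid genes were lower for 5 of 5 (1445 to 1505 against 2254 to 2443) and melanocyte genes for 4 of 4 (544 to 593 against 771 to 865). Endothelial genes were higher for 5 of 5 (1874 to 1881 against 1266 to 1407). Dermal papilla genes, from a mesenchymal cell type that responds to Hedgehog, overlapped in sum (974 to 1020 against 959 to 1017; 1 of 5 tested higher, 2 lower), and dermal fibroblast genes summed to 1081 to 1092 against 975 to 1077 (1 of 4 higher, 2 lower). The part of these cells in the Hedgehog differences was not tested.

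In basal IFE cells no Hedgehog gene passed the test between arrays labelled Bmal1 KO and wild type. Of the 7 members above the brightness filter, 0 passed after adjustment (adjusted p of 0.839 to 0.998 by limma) and 0 had an unadjusted p under 0.05. Over all 13957 genes tested, 27 passed (0.193%) and 1111 had an unadjusted p under 0.05. The 27 became 98 without wild-type array 1, and 7 to 16 without any 1 of the other arrays. The median change of the tested members was 0.04, beside -0.01 for all genes. The spread between arrays of 1 group was wider than in the bulge for Ptch1, Gli2, Gli3, Smo and Sufu, but narrower for Shh and Gli1. The standard errors of the tested members were 0.09 to 0.17, beside 0.06 to 0.12 in the bulge.

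Smo had the largest difference, with 10.67, 10.55 and 10.36 on KO and 9.90, 10.47 and 10.42 on wild-type arrays. Wild-type array 1 stood low and the groups overlapped, and the change was 0.26 ± 0.17 (interval -0.13 to 0.65). Sufu read 9.28, 9.06 and 8.81 on KO and 8.75, 9.19 and 9.22 on wild-type arrays, a change of -0.01 ± 0.17 (interval -0.40 to 0.39). Ptch1 read 9.95, 9.72 and 9.54 on KO and 9.71, 10.02 and 9.94 on wild-type arrays. Wild-type array 1 was again the lowest of its group for Sufu and Ptch1, and Ptch1 changed by -0.15 ± 0.14 (interval -0.47 to 0.17).

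The Gli genes were close between the IFE groups. Gli1 read 7.97, 7.94 and 7.94 on KO and 7.88, 7.86 and 7.93 on wild-type arrays. These groups did not overlap, as was so for 12.7% of all genes, and the change was 0.06 ± 0.09 (interval -0.15 to 0.27). Gli2 read 7.65, 7.32 and 7.43 against 7.44, 7.28 and 7.55 and changed by 0.04 ± 0.13 (interval -0.25 to 0.33). Gli3 read 9.24, 9.01 and 8.88 against 8.98, 8.77 and 8.90 and changed by 0.16 ± 0.12 (interval -0.13 to 0.45). The intervals of Gli2 and Gli3 lie below their bulge changes of 0.87 and 0.67. These IFE intervals are for KO minus wild type, which runs opposite in clock to clock-positive minus clock-negative. The difference itself is tested further on, with the IFE change taken as wild type minus KO.

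The ligand gene Shh and the gene of the ligand-binding protein HHIP, both dim, gave no call. Shh read 7.05, 7.05 and 7.17 on KO and 7.07, 7.16 and 7.22 on wild-type arrays, a change of -0.06 ± 0.10 (interval -0.29 to 0.17). Hhip lay below the filter level of 6.83 on every IFE array, at 6.07, 6.16 and 6.21 on KO and 6.02, 5.92 and 5.87 on wild-type arrays. The KO arrays were all higher, and the change was 0.21 ± 0.09 (interval 0.00 to 0.42). With no filter its unadjusted p was 0.0491 and its adjusted p 0.713 by limma.

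Of 63 tested genes of the 5 lists, 0 passed in the epidermis by limma and 6 had an unadjusted p under 0.05, beside 1111 of all 13957 genes; the median change of the 63 was -0.03. These 6, none past the threshold, were Foxm1 (0.51 ± 0.15, adjusted p = 0.328), Ccnd2 (-0.38 ± 0.11, 0.360), Dync2h1, a ciliary motor subunit (-0.41 ± 0.15, 0.514), Mks1, a protein of the ciliary base (-0.30 ± 0.12, 0.544), Disp1 (0.27 ± 0.11, 0.588) and Ccnd1 (-0.43 ± 0.19, 0.619). The T cell markers, summed over all list genes on the array, were 860 to 986 on KO and 1434 to 3948 on wild-type arrays. The myeloid markers summed to 718 to 866 against 889 to 3696. Of the genes tested, 0 of either list passed the threshold by limma, though 4 of 4 and 5 of 5 had an unadjusted p under 0.05. The part of these markers in the Hedgehog values was not tested.

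The effect of a high against a low clock was then compared between the sets, as the change from clock-negative to clock-positive in bulge minus the change from KO to wild type in IFE. The sets differ in tissue, age and number of mice pooled, which cannot be told apart from the clock here. Of 13100 genes tested in all 12 arrays, 16.7% passed. Gli2 (0.91 ± 0.14, adjusted p = 0.00124 by limma) and Gli3 (0.84 ± 0.15, adjusted p = 0.00253 by limma) were the 2 of 7 tested members that did; Hhip was below the filter. Smo gave 0.57 ± 0.19 (adjusted p = 0.0550) and Gli1 0.28 ± 0.11 (0.0862), both past the threshold with median-centred arrays (0.0288 and 0.0299). Sufu (0.36, adjusted p = 0.176), Shh (-0.30, 0.213) and Ptch1 (0.05, 0.823) did not pass by limma.

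The genes whose pattern was most like that of 3 members were sought among 12499 genes by Pearson's r over the 12 arrays, with each set centred on its own mean. For Ptch1 these were Pml (r = 0.975), Vps33b (0.973) and Usp4 (0.968), for Gli1 Zc2hc1a (0.965), Fam216a (0.958) and Ugdh (0.957), and for Shh Apoa1 (0.908), Lhx4 (0.907) and Abcc8 (0.896). The points share arrays and the bulge split, so these values are a description.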

How the data were processed

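Expression was measured on Affymetrix mouse arrays in 12 samples, 3 in each of 4 groups; per the labels' protocols, sorted-cell RNA was amplified before labelling. The values deposited by the authors are on a log2 scale and come from RMA according to the submitters' processing notes, whose version is not given in the sources used here. Bulge columns held values for 34760 probe sets and epidermis columns for 28853, and normalization was probably run on each set apart. Of 35512 probe sets, 21789 carried 1 symbol. Each gene was represented by 1 probe set, and the 30% of genes dimmest over a comparison's arrays were left out.

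Group means were fitted per comparison with limma 3.58.1 (lmFit, eBayes) in R 4.3.3 over its 6 arrays, and the difference of changes over all 12, with Benjamini-Hochberg adjustment and two-sided tests; the script was tested on simulated data. Each comparison had 15 alternatives and the difference 4. Precision is limited by the number of arrays, which carry no read depth. Errors after ± are the fit's standard errors. The motif search used RefSeq promoter windows. By plan, all 8 members and the 3 genes most like Ptch1, Gli1 and Shh were named. So were up to 4 genes of each pathway list and up to 3 of a marker list with the smallest p. Further genes were named after their values were seen, among them Stk36, the lower target genes, Msx2, Krt31, Krt35, Krt15 and Itga6. The members and lists were chosen with earlier results of these data known.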

Additional observations from a re-analysis of the deposited data

Results flagged for a closer look

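The change of Gli2 from clock-negative to clock-positive in bulge exceeded its change from KO to wild type in IFE by 0.91 ± 0.14 on the log2 scale (adjusted p = 0.00124 by limma). For Gli3 the same difference was 0.84 ± 0.15 (adjusted p = 0.00253 by limma). The IFE change is taken here as wild type minus KO, the reverse of the changes given for the IFE comparison. Both were picked out because the difference of the changes itself passed the test, as it did for 16.7% of all genes. Gli2 was higher on 3 of 3 clock-positive than on any clock-negative array, and its IFE groups overlapped. The same held for Gli3. Of all genes tested, 69.2% had bulge groups that did not overlap and 12.7% had IFE groups that did not.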

How the results depend on the processing

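Gli2, Gli3 and Sufu kept their direction and call in all 15 bulge alternatives, and the other bulge members' lost calls are given above for scalings and left-out arrays. The 6 members called higher became 3 under quantile normalization and 3 under cyclic loess, and 4 to 6 when 1 array was left out. The 1 called lower, Hhip, became 0 with the dimmest 50% left out, with median centring, quantile normalization, loess, a trend in eBayes and all 12 arrays in 1 fit. When 1 array was left out, 0 to 1 members were called lower. Without clock-positive array 2 that 1 was Shh and not Hhip. In the fit of 12 arrays, Ptch1 (adjusted p = 0.155 by limma), Smo (0.0857) and Hhip (0.0680) did not pass. With the dimmest 50% left out, Shh and Hhip were not tested in the bulge, nor were Shh, Gli1 and Gli2 in the epidermis. Ptch1 reversed to -0.01 under loess, and Hhip to 0.01 under quantile normalization and 0.01 under loess. Of the pathway lists in the bulge, 27 genes were higher under loess and 27 in the fit of 12 arrays; lower were 0 with median centring, 3 with quantile normalization, 4 with loess, 2 in the fit of 12 arrays and 2 to 8 when 1 array was left out. All genes called in the bulge came to 5809 (quantile), 5739 (loess) and 5301 (12 arrays).

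In the epidermis no member passed under any alternative run. All genes called, 27 as reported, came to 16 with no filter, 47 with the dimmest 50% left out, 49 (quantile), 85 (loess), 57 (trend), 407 (12 arrays, with 1 pathway gene higher and 1 lower) and 7 to 98 when 1 array was left out. Uncalled members turned sign: Gli2 ranged from -0.05 to 0.11 and Sufu from -0.16 to 0.11 when 1 array was left out, and Sufu was 0.03 under loess. In the difference of changes, 4 members passed with median centring, and Ptch1 became -0.11 (quantile) and -0.14 (loess). The causes were not tested; the number of arrays sets the precision.

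Groups share replicate numbers, and the labels do not say that these pair samples, so the main fits used no pairing. Same-numbered arrays deviated together with r of 0.241, 0.26 and -0.061 in the bulge, beside -0.325 to 0.126 for different numbers. In the epidermis r was -0.442, 0.043 and -0.525, beside -0.312 to 0.538 for different numbers. For the bulge these values do not settle whether samples were paired. With a replicate block, 2 bulge members were lower (Shh passed, adjusted p = 0.00857 by limma) and 3 genes were called in the epidermis.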
